A study of Mus musculus with 9 samples.

Results

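The genes of Polycomb repressive complex 2 (PRC2) examined here were the 10 core and accessory subunit genes Ezh2, Ezh1, Suz12, Eed, Rbbp4, Rbbp7, Jarid2, Aebp2, Mtf2 and Phf19, listed by name as known subunits of the complex. All 10 had a RefSeq start on assembly GRCm38.p6, among 17492 protein-coding genes with such a start. They were read in 7 peak lists made from MYCN-driven T-cell lymphoma of the thymus, in mice of the C57BL/6J strain. Each list came from 1 ChIPmentation library, a chromatin immunoprecipitation in which a transposase adds the sequencing adapters. The antibodies were against EZH2, SUZ12, H3K27me3, N-MYC, p300, H3K27ac and H3K4me3, and all 7 libraries carried the same strain, tissue and cell-type labels. The series also held 2 input libraries, which had no peak list and were not analysed here. The age and sex of the mice, the promoter that drives MYCN, the number of animals and the read depth are not given in the sources used here. Because each antibody had 1 library, the spread between replicates is unknown and no test was run.

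PRC2 places methyl groups on lysine 27 of histone H3. EZH2 and its paralogue EZH1 are the alternative catalytic subunits, SUZ12 and EED hold the core together and are needed for activity, and the histone-binding proteins RBBP4 and RBBP7 complete it. MTF2 and PHF19 are Polycomb-like proteins of one form of the complex, whereas JARID2 and AEBP2 belong to another; both groups help direct the core to chromatin. H3K27me3 marks silenced genes, while H3K4me3, H3K27ac and the acetyltransferase p300 mark active promoters. In dividing lymphoid cells EZH2 is the main catalytic subunit, and EZH1 is better known from resting cells. The subunit genes can themselves carry the proteins and marks that were profiled.

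Of the antibodies, N-MYC recognises a protein that binds E-box DNA, with CACGTG as its best known site and CACGCG as a variant. The RefSeq promoters below run from 250 bases before to 50 bases after the start on GRCm38.p6, and are printed 5′ to 3′ on the strand of the gene. They show the catalytic pair, the SUZ12 and EED partners, the gene with a CACGTG, the gene without an EZH2 peak (Rbbp7) and the gene without an N-MYC peak (Phf19). Capitals mark each match to CACGTG, or to CACGCG on either strand (read as CGCGTG on the opposite strand).
Ezh2, chr6:47594981-47595280, minus strand: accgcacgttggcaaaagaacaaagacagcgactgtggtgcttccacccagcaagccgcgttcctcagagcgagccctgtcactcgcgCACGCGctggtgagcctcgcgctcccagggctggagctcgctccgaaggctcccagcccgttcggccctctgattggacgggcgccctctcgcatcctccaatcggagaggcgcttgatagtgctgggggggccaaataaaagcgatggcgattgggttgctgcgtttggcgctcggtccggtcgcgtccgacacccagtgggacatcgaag
Ezh1, chr11:101226414-101226713, minus strand: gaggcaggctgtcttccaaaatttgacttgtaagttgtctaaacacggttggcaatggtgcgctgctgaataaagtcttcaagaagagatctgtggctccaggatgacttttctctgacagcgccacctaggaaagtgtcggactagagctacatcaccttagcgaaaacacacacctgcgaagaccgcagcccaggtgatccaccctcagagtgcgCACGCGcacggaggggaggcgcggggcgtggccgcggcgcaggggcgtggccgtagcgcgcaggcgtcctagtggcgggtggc
Suz12, chr11:79992856-79993155, plus strand: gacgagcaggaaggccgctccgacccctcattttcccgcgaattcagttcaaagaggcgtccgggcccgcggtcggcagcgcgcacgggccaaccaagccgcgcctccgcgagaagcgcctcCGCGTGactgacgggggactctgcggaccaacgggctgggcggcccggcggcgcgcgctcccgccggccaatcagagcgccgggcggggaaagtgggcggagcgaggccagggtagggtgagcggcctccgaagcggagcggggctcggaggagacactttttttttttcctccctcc
Eed, chr7:89980927-89981226, minus strand: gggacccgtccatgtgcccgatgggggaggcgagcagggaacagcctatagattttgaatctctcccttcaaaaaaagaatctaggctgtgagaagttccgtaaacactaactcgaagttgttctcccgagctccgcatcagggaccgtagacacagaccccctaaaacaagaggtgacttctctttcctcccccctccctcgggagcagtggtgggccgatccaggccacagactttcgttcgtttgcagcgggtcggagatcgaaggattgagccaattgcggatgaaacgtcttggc
Rbbp4, chr4:129335321-129335620, minus strand: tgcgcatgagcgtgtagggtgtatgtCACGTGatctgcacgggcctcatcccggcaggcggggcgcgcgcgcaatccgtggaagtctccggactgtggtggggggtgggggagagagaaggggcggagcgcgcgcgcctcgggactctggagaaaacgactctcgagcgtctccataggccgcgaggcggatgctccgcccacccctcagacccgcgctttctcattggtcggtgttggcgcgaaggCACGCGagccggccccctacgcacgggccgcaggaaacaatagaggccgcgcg
Rbbp7, chrX:162760122-162760421, plus strand: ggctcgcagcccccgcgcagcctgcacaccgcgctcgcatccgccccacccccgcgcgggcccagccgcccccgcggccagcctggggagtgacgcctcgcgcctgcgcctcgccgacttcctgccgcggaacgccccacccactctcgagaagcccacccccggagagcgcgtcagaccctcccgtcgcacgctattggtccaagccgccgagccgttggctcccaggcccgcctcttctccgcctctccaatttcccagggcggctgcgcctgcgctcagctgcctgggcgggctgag
Phf19, chr2:34913927-34914226, minus strand: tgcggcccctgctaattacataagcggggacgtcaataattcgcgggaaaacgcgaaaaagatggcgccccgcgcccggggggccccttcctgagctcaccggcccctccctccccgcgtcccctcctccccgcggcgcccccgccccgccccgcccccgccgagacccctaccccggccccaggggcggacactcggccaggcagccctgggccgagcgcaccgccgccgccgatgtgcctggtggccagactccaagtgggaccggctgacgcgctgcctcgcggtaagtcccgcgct

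CACGTG, which reads the same on both strands, was present in 1 of the 10 promoters, that of Rbbp4, against 7.91% of the 17492 promoters of this length and 13.0% of those with an N-MYC peak at the start. CACGCG was present in 5 of the 10 (Ezh2, Ezh1, Suz12, Rbbp4 and Jarid2), against 12.2% of all promoters and 24.3% of those with N-MYC. No matches overlapped each other in these promoters. All of the matches lay inside the N-MYC peak of the gene. At Ezh2, Suz12, Rbbp4 and Jarid2 that peak covered the whole sequence searched, so no match there could lie outside it. The third base of the motif was 71 bp from the N-MYC summit at Ezh2, 55 bp at Ezh1, 59 bp at Suz12 and 582 bp at Jarid2. At Rbbp4 the CACGCG lay 41 bp from the summit and the CACGTG 180 bp from it. Eed, Mtf2 and Rbbp7 had an N-MYC peak and neither motif in the window. The Aebp2 window also held neither, but its N-MYC peak began 646 bp after the start, outside the sequence searched. The promoters were rich in CG: the median number of CG dinucleotides was 30.5 over the PRC2 genes, 13 over all promoters and 22 over those with H3K4me3 at the start. Aebp2 had the fewest, 4, and Suz12 the most, 41. The Aebp2 value belongs to its most upstream listed start, and the promoter of its second listed start had 21.

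At their starts, the PRC2 genes carried the marks of active promoters, mostly together with N-MYC and EZH2. SUZ12 and H3K27me3 peaks were few, as at active promoters in general. A gene was counted when a peak overlapped the 1 kb on either side of its most upstream listed start by at least 1 bp. H3K4me3, H3K27ac and p300 peaks were present at 10 of 10 genes, against 51.1%, 51.1% and 39.8% of all protein-coding genes. N-MYC was called at 9 of 10, against 33.2% of all genes, and was missing at Phf19. EZH2 was called at 9 of 10, against 44.9%, and was missing at Rbbp7. SUZ12 was called at 0 of 10 genes, against 12.3%, and H3K27me3 at 1 of 10, Ezh1, against 23.7%. Among starts with both H3K4me3 and H3K27ac these shares were 5.08% and 8.70%, so the counts at PRC2 genes were near that background. The 95% Wilson interval of the EZH2 background share ran from 44.2 to 45.6%, and it covers counting error only. Where a peak is missing, nothing passed the authors' threshold, which leaves weaker signal possible.

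**Figure D1:**
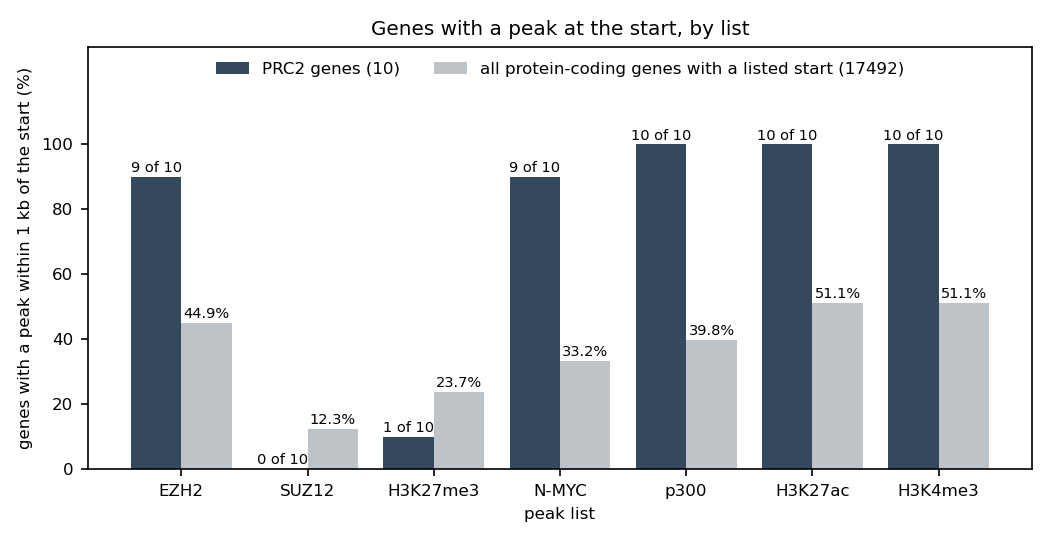
Share of genes (%) with a peak within 1 kb of the start in each of the 7 lists, for the 10 PRC2 genes (dark bars, with their count) and for all 17492 protein-coding genes with a listed start (grey bars). H3K4me3, H3K27ac and p300 reach 10 of 10 PRC2 genes, while SUZ12 is at 0 of 10 and H3K27me3 at 1 of 10.

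Ezh2, Suz12, Eed, Rbbp4, Jarid2, Aebp2 and Mtf2, 7 of the 10 genes, had EZH2, N-MYC, p300, H3K27ac and H3K4me3 together with neither SUZ12 nor H3K27me3. This combination was found at 24.9% of all genes. The background was higher among active promoters: of the 7704 starts with H3K4me3 and neither Polycomb feature, 56.5% had the combination, and 7 of the 9 PRC2 genes in that class did. In the same class EZH2 was called at 72.5% of starts and at 8 of 9 PRC2 genes, N-MYC at 69.8% and at 8 of 9, p300 at 85.2% and at 9 of 9, and H3K27ac at 98.4% and at 9 of 9. Read against active promoters, the counts of PRC2 genes thus lay much closer to the background than when read against all genes.

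The calls also followed the strength of H3K4me3 across that class. EZH2 was called at 26.5% of starts in the lowest quartile of H3K4me3 fold enrichment, at 72.0% in the second, 92.9% in the third and 98.9% in the highest. For N-MYC the shares were 49.2%, 68.5%, 76.1% and 85.2%. Suz12 and Rbbp4 lay in the highest quartile and Ezh2, Eed and Mtf2 in the third. Both genes of this class that lacked a factor, Rbbp7 and Phf19, lay in the second quartile together with Jarid2. Aebp2 lay in the lowest quartile and carried both EZH2 and N-MYC.

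The catalytic genes differed in their surroundings. Ezh2, on the minus strand of chromosome 6, had an EZH2 fold enrichment of 7.46, which is the authors' own ratio of a peak over its background. Its N-MYC fold enrichment was 13.2, the highest of the 10 genes and at or above that of 96.8% of all starts with an N-MYC peak, and it ranked 212 among the 9798 N-MYC peaks. p300 stood at 6.26, H3K27ac at 19.7 and H3K4me3 at 34.0. No SUZ12 or H3K27me3 peak lay within 50 kb of its start. The same held at Eed, Rbbp7, Jarid2, Aebp2, Mtf2 and Phf19. The share of all genes was not computed for the 50 kb counts given here and below. From the Ezh2 start, the nearest H3K27me3 peak was 196194 bp away and the nearest SUZ12 peak 849591 bp away. A lncRNA gene without a listed start, F830010H11Rik, also reached the Ezh2 window, so peaks there are shared between both genes.

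Ezh1, on the minus strand of chromosome 11, carried the active lists, with the lowest H3K27ac of the 10 genes. It was the 1 gene with H3K27me3 in the window. Its fold enrichment was 4.52 in the EZH2 list, 6.06 in N-MYC, 5.02 in p300, 9.15 in H3K27ac and 32.4 in H3K4me3. Its EZH2 and H3K27ac values were at or above those of 22.2% and 31.3% of the starts called in these lists, whereas its H3K4me3 was at or above that of 70.6%. Its H3K27me3 peak, chr11:101227377-101228600, had a fold enrichment of 5.33 and its near edge lay at −914 bp and its summit at −1044 bp from the start, with minus for upstream. A gap of 618 bp separated it from the H3K4me3 peak, so active and silenced marks were side by side and did not overlap. It was the near end of a run of H3K27me3 peaks upstream: the next peak was 6037 bp wide with its summit at −4522 bp. The nearest other gene to the peak in the window, Ramp2, was 17734 bp from it. Within 50 kb of the Ezh1 start there were 11 H3K27me3, 9 EZH2 and 4 SUZ12 peaks. Having the 5 active lists with H3K27me3 and without SUZ12 was a combination found at 101 of 17492 starts, or 0.577%. Of the starts with both H3K4me3 and H3K27ac, 8.70% had H3K27me3 and 5.08% had SUZ12, against 1 and 0 of the 10 PRC2 genes. The H3K27me3 call at Ezh1 was lost with a window of 500 bp, when the summit had to lie in the window, and when the lists were shortened to equal length.

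**Figure D2:**
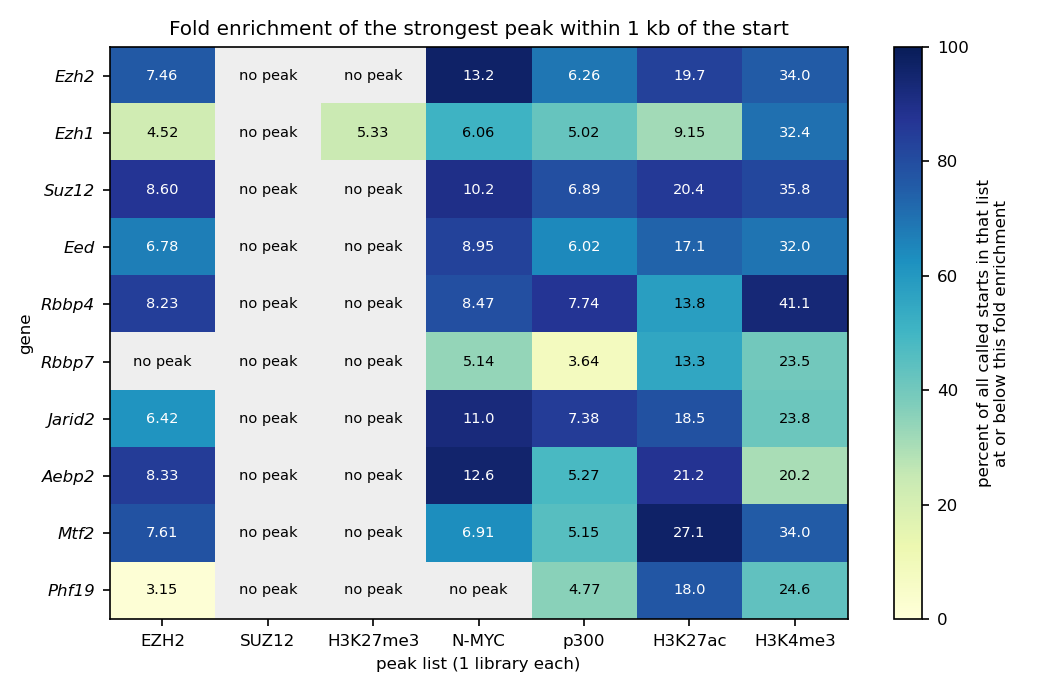
Fold enrichment of the strongest peak within 1 kb of the start (numbers) for the 10 PRC2 genes (rows) in the 7 lists (columns); colour gives the percent of all called starts in that list at or below the value, and grey cells have no peak. Ezh1 has the one H3K27me3 value, 5.33, and Rbbp7 and Phf19 each lack 1 of EZH2 and N-MYC.

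Suz12 and Eed, the genes of the obligate partners of the catalytic subunit, resembled Ezh2. Suz12, on the plus strand of chromosome 11, had the highest EZH2 fold enrichment of the 10 genes, 8.60, at or above that of 87.3% of starts with EZH2. Its N-MYC fold enrichment was 10.2, p300 6.89, H3K27ac 20.4 and H3K4me3 35.8. The nearest SUZ12 peak was 17916 bp upstream of the start. Within 50 kb of the Suz12 start there were 1 SUZ12 and 3 H3K27me3 peaks. Eed, on the minus strand of chromosome 7, had EZH2 at 6.78, N-MYC at 8.95, p300 at 6.02, H3K27ac at 17.1 and H3K4me3 at 32. Both genes lay above the median of called starts in all 5 active lists.

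The histone-binding pair was split. Rbbp4, on chromosome 4, had the highest H3K4me3 (41.1) and the highest p300 (7.74) fold enrichment of the 10 genes, with EZH2 at 8.23, N-MYC at 8.47 and H3K27ac at 13.8. An additional EZH2 peak of fold enrichment 4.17 lay between −1053 and −434 bp. Zbtb8os starts 598 bp away on the opposite strand, so the upstream peaks cannot be assigned to Rbbp4 alone. Rbbp4 also had 10 H3K27me3 and 3 SUZ12 peaks within 50 kb, the nearest of each 40727 bp and 41402 bp away.

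Rbbp7, on chromosome X, was the weakest of the 10 genes in p300 (3.64) and the weakest called in N-MYC (5.14), with H3K27ac at 13.3 and H3K4me3 at 23.5. Its p300 call was lost at a q-value of at most 1e-05, at a fold enrichment of at least 4 and with lists of equal length, which left p300 at 9 of 10 genes. It had no EZH2 peak at the start or in the gene body, and the nearest one was 68426 bp downstream. EZH2 was called at 85.2% of the 5382 starts that had N-MYC, p300, H3K27ac and H3K4me3. Starts on chromosome X differed from others in the same lists: among the 259 X-linked starts with H3K4me3 and neither Polycomb feature, EZH2 was called at 24.7%, N-MYC at 34.0% and p300 at 39.8%. On autosomes the shares at 7441 such starts were 74.3%, 71% and 86.8%. The median H3K4me3 fold enrichment was 23.1 on X and 28.4 on autosomes, and H3K27ac was called at 95% and 98.5%. Not every X-linked start lacked EZH2: Kdm6a, an H3K27 demethylase gene on that chromosome, had EZH2 at 6.82 and no N-MYC. Uty, the counterpart of Kdm6a on chromosome Y, had H3K4me3 at 21.0, H3K27ac at 19.1 and p300 at 3.78. The number of X copies in these cells is not given in the sources used here. The part of the chromosome, or of its copy number, in the missing EZH2 call at Rbbp7 was not tested.

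Of the accessory genes, Jarid2, Aebp2 and Mtf2 carried all 5 active lists, and Phf19 all but N-MYC. Jarid2, on the plus strand of chromosome 13, encodes a DNA-binding subunit related to histone demethylases. Its H3K4me3 peak was the widest of the 10 genes, 6326 bp, as wide as or wider than 98.7% of the H3K4me3 peaks at starts, although its fold enrichment of 23.8 was below their median of 26.6. Its N-MYC peak of 1741 bp was the widest as well, with a fold enrichment of 11. EZH2 stood at 6.42, p300 at 7.38 and H3K27ac at 18.5.

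Aebp2, on the plus strand of chromosome 6, encodes a zinc finger subunit. It had EZH2 at 8.33, N-MYC at 12.6, p300 at 5.27, H3K27ac at 21.2 and H3K4me3 at 20.2. All of these peaks lay downstream of the most upstream of its 3 listed starts. The EZH2, H3K27ac and H3K4me3 peaks spanned the second start, 2246 bp further on, whereas the N-MYC and p300 peaks ended before it, at 1551 bp and 1950 bp. The H3K4me3 peak began 80 bp after the upstream start, and the EZH2 summit was 1677 bp after it. A window of 500 bp around the upstream start therefore lost the EZH2, N-MYC and p300 calls. Read within 1 kb of the second start, the values came from the same peaks; at the third, 4222 bp downstream, H3K4me3 alone remained.

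Mtf2, on the plus strand of chromosome 5, had the highest H3K27ac fold enrichment of the 10 genes, 27.1, at or above that of 96.6% of starts with H3K27ac. Its EZH2 was 7.61, N-MYC 6.91, p300 5.15 and H3K4me3 34.0. Its other listed start, 12491 bp downstream, had no peak in any list.

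Phf19, the other Polycomb-like gene of the list, on the minus strand of chromosome 2, had the lowest EZH2 value of the 9 called genes, 3.15, at or above that of 1.46% of starts with EZH2. Its q-value, 4.08 on the −log10 scale, was also the weakest of these 9 calls. It had no N-MYC peak, the nearest lying 42488 bp downstream. N-MYC was called at 82.3% of the 5571 starts that had EZH2, p300, H3K27ac and H3K4me3. H3K27ac at Phf19 was strong, 18.0, with p300 at 4.77 and H3K4me3 at 24.6. The EZH2 call was lost at a q-value of at most 1e-05, at a fold enrichment of at least 4 and with lists of equal length.

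Set against all starts called in each list, most PRC2 genes lay above the median in N-MYC, EZH2 and H3K27ac. In N-MYC the 9 called genes ran from 5.14 to 13.2 with a median of 8.95, against a median of 6.01 over 5809 called starts, and 6 of the 9 exceeded the upper quartile of 8.03. In EZH2 the 9 called genes ran from 3.15 to 8.60 with a median of 7.46, against 5.83 over 7855 starts, and 5 exceeded the upper quartile of 7.33. In H3K27ac all but Ezh1 lay above the median of 12.4, and the genes ran from 9.15 to 27.1. In p300 the genes were centred on the background, with a median of 5.64 against 5.40 and 5 of 10 above it. In H3K4me3 6 of 10 lay above the median of 26.6. Fold enrichments of different lists are not on a common scale and were not compared with each other.

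**Figure D3:**
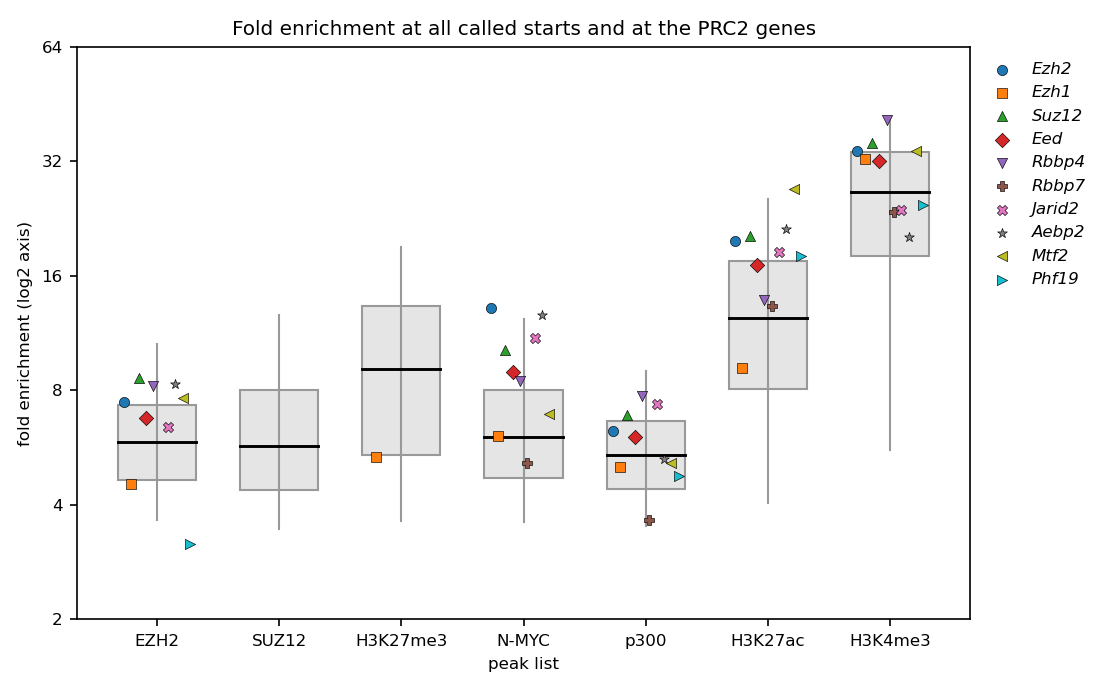
Fold enrichment (log2 axis) of the strongest peak at the start in each list: boxes give the middle 50% of all called starts with the median as a black line, grey lines run from the 5th to the 95th percentile, and symbols are the PRC2 genes. Most N-MYC and H3K27ac symbols lie above the black lines at 6.01 and 12.4. Below them are Rbbp7 in N-MYC (5.14) and Ezh1 in H3K27ac (9.15).

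The peaks were arranged in the same order along most of these promoters. At the 7 genes with the active combination, the EZH2 summit lay downstream of the N-MYC summit in 7 of 7 cases, as it did at 75% of the 4354 starts with that combination. EZH2 summits were a median of 78 bp from the H3K4me3 summit (from 12 bp at Eed to 216 bp at Mtf2), and a median of 592 bp from the N-MYC summit. Over all 4354 starts these medians were 103 bp and 315 bp. N-MYC summits lay close to p300 summits, with a median of 50 bp against 168 bp over all 4354 starts, though 710 bp apart at Jarid2. At Ezh2 the N-MYC summit was at −231 bp and the EZH2 summit 501 bp downstream of the start, 732 bp apart. The strongest EZH2 and N-MYC peaks of that gene shared 131 bp of the 1305 bp of the EZH2 peak. The shared part was 30.4% of the EZH2 peak at Suz12, 50.1% at Eed, 26.3% at Rbbp4 and 25.5% at Mtf2. Jarid2 differed: its EZH2 peak in the window was upstream of the start, with its summit 12 bp from that of N-MYC, and it lay wholly within the N-MYC peak. Further EZH2 peaks followed downstream of the Jarid2 start, of fold enrichment 5.43 and 6.62.

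**Figure D4:**
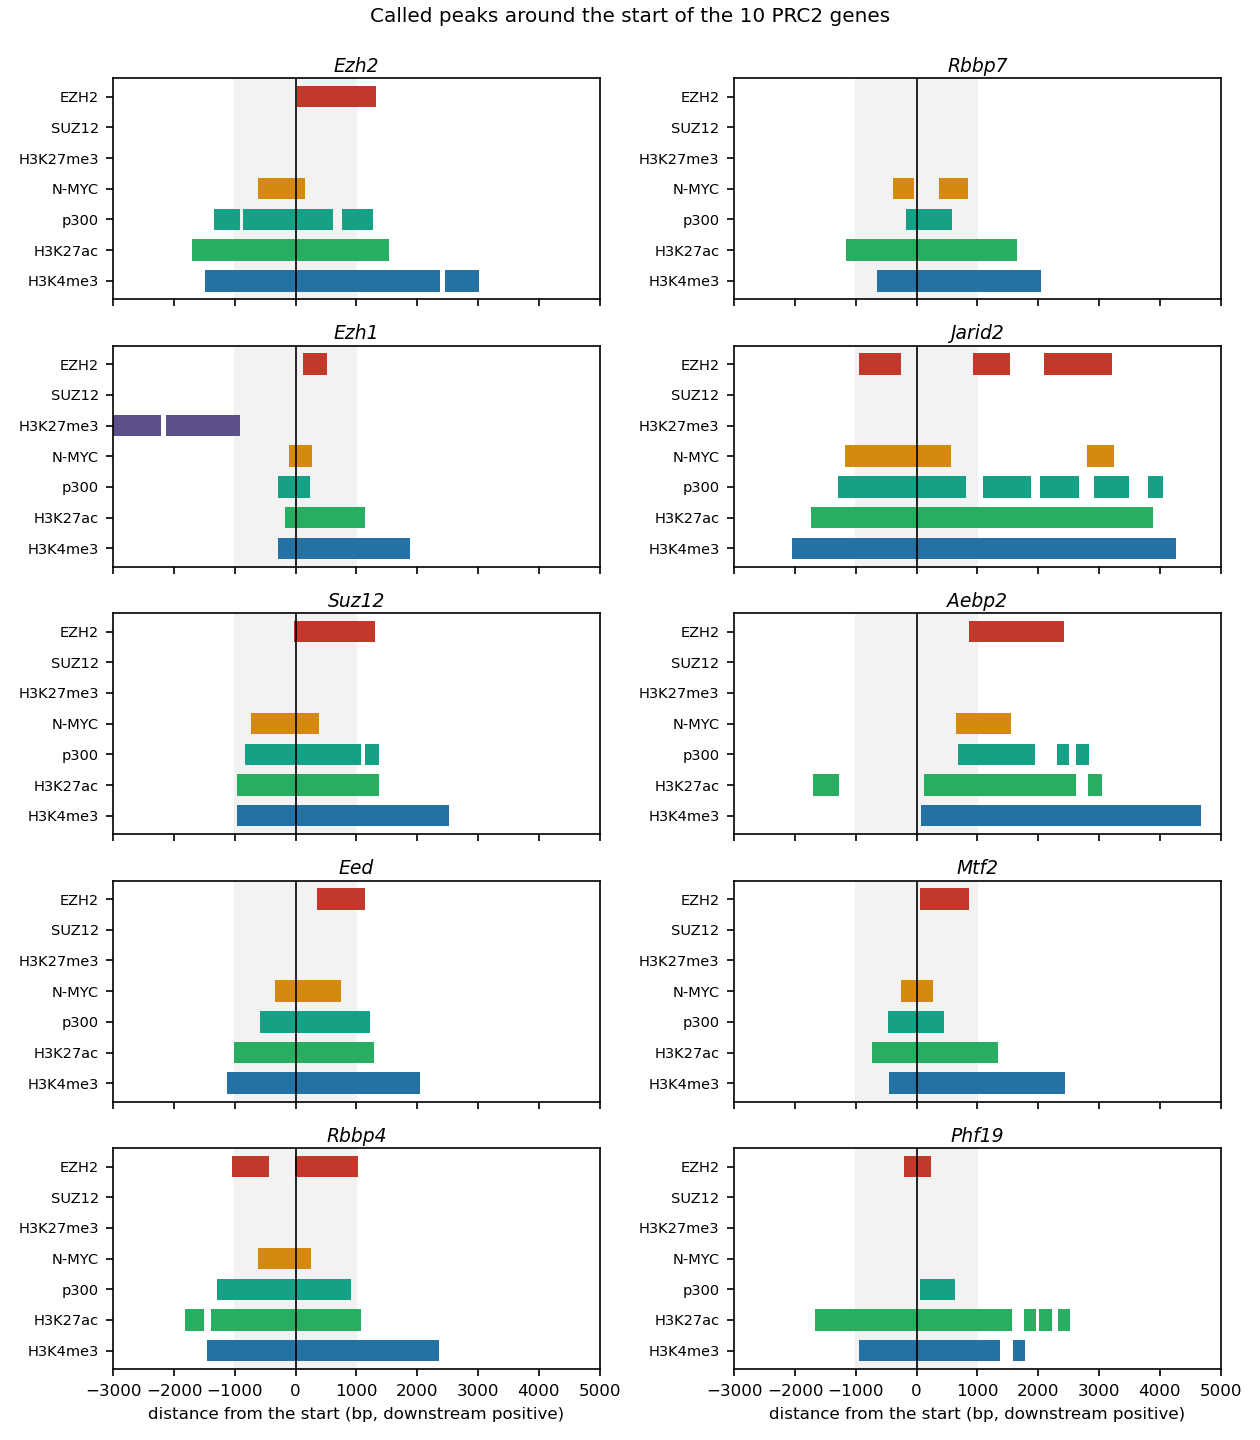
Called peaks of the 7 lists from 3 kb before to 5 kb after the start of each PRC2 gene, oriented so that transcription runs to the right; the black line is the start and the grey band the 1 kb window. EZH2 peaks begin near the start and extend downstream at Ezh2, Suz12, Eed, Rbbp4 and Mtf2, while N-MYC spans the start.

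Over the gene bodies, from the annotated start to the end of each gene, the picture was almost the same. EZH2 was called in 9 of 10 bodies, against 46.9% of all genes, N-MYC in 9 of 10 (36.2%), and p300, H3K27ac and H3K4me3 in 10 of 10 (43.2%, 58.5% and 55.0%). SUZ12 was called in 0 of 10 bodies, against 13.9%, and H3K27me3 in 1 of 10, Jarid2, against 29.0%. Long genes meet more peaks, and the bodies ran from 18.7 kb at Rbbp7 to 191 kb at Jarid2. Beyond the start window, EZH2 had 1 further peak, the one at Jarid2, and the other EZH2 peaks in these bodies overlapped the start window.

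Beyond the start window, H3K27ac had 39 peaks in 4 of the 10 bodies (Ezh1, Jarid2, Aebp2 and Phf19), against 36.7% of all genes with such a peak. p300 had 10 peaks in 4 bodies (Ezh1, Suz12, Jarid2 and Aebp2), against 11.2%, and N-MYC had 4 peaks in 3 bodies (Ezh1, Jarid2 and Aebp2), against 7.50%. Many of these p300 peaks lay near the start. The Suz12 peak began at 1136 bp, the Aebp2 peaks ended by 2836 bp, and all but 2 at Jarid2 lay between 1096 and 4047 bp. Of the Jarid2 N-MYC peaks counted here, the nearer ran from 2805 to 3242 bp, inside the H3K4me3 peak of the start. The other, at 139 kb, is the weak site described below. Jarid2 held 19 of the H3K27ac peaks, from about 36.9 kb to 88.5 kb after the start, and 2 distal p300 peaks lay among them at 69.2 kb and 88.7 kb. At Ezh1 H3K27ac covered 25.6% of the body, with 8 peaks beyond the start. The strongest of these, 6650 bp wide with a fold enrichment of 12.1, exceeded the 9.15 of the Ezh1 start and crossed the 3′ end of the gene. N-MYC (4.17) and p300 (4.40) peaks lay 31.4 kb and 31.2 kb from the start, inside the neighbouring H3K27ac peak of fold enrichment 6.95. At Phf19 9 further H3K27ac peaks, none above a fold enrichment of 4.22, brought the covered share to 21.6%. In Ezh2, Suz12, Eed, Rbbp4, Rbbp7 and Mtf2 no H3K27ac peak lay beyond the start window.

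The H3K27me3 call in the Jarid2 body was narrow and weak. It was 248 bp wide with a fold enrichment of 1.85, and 12 of the 123056 H3K27me3 peaks had a lower value. An N-MYC peak had its summit at the same base, position 44869970 of chromosome 13 and 139 kb from the start, with a fold enrichment of 1.84; 4 of 9798 N-MYC peaks had a lower value. Whether this site gives signal whatever the antibody was not tested, so neither peak is read here as H3K27me3 or N-MYC in the gene. The call was lost at a q-value of at most 1e-05, at a fold enrichment of at least 4 and with lists of equal length.

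**Figure D5:**
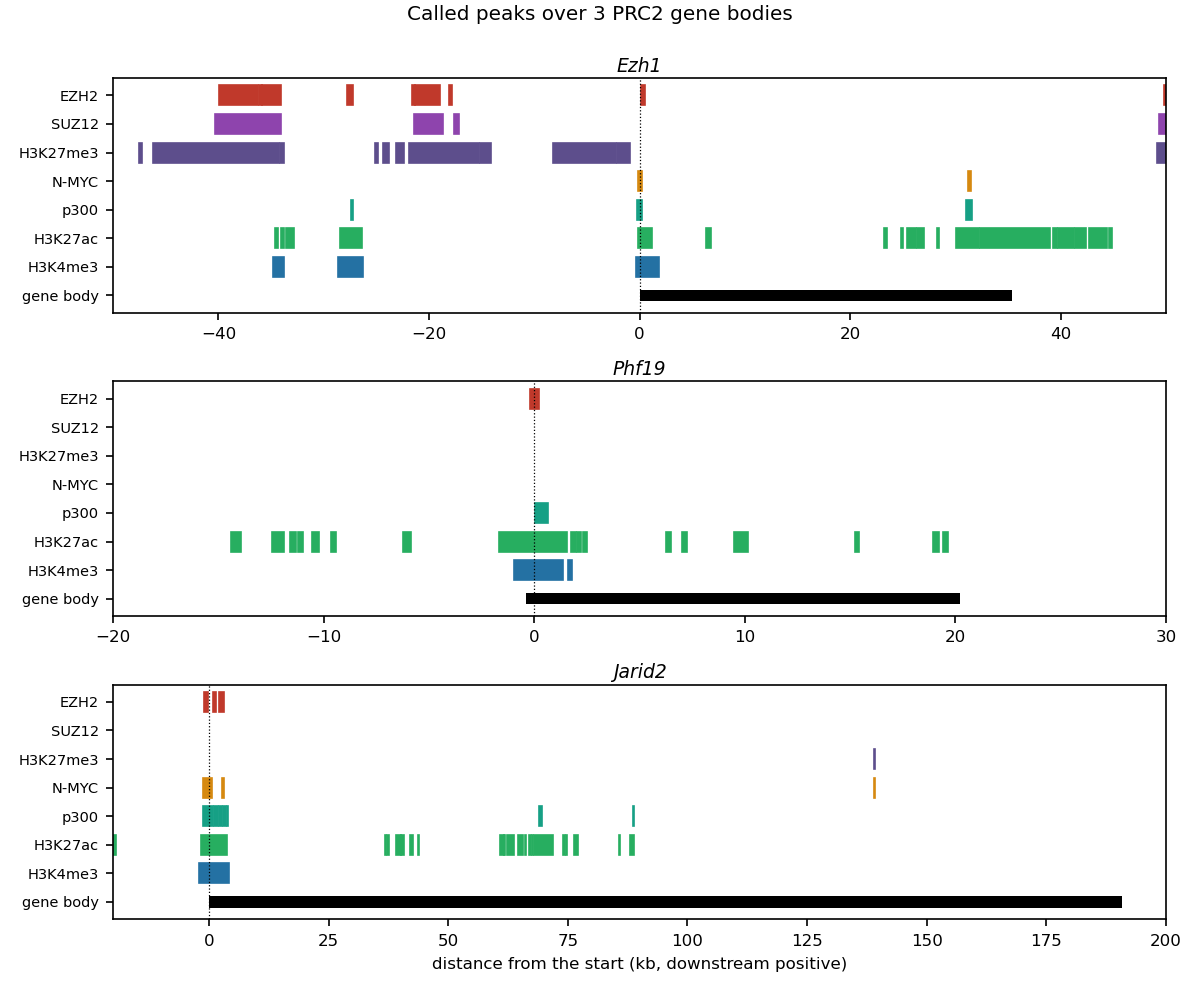
Called peaks of the 7 lists along Ezh1, Phf19 and Jarid2, in kb from the start with transcription to the right; black bars are the gene bodies, and the scale differs between panels. Ezh1 has H3K27me3 upstream and H3K27ac over its 3′ end, and Jarid2 has 19 H3K27ac peaks beyond its start and 1 H3K27me3 peak at 139 kb.

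Other genes of the H3K27 methylation system were read from fixed lists: further PRC2 partners, H3K27 demethylases, H3K27me3 readers, the core of PRC1 (the complex that binds H3K27me3 and ubiquitinates histone H2A) and the H2A deubiquitinase. The 15 genes of these lists with a listed start were read. H3K4me3, H3K27ac and p300 were each called at 14 of the 15, EZH2 and N-MYC at 12. Ezhip, which encodes an inhibitor of PRC2, had no peak in the 7 lists. SUZ12 or H3K27me3 was called at 4 of the 15, near the 23.8% of all genes with either, and at 1 of the 10 PRC2 genes. The 4 were Bmi1, Cbx8, Cbx7 and Pcgf2. Bmi1, a PRC1 ring finger gene, had EZH2 at 25.5, SUZ12 at 16.5 and H3K27me3 at 9.96, and Cbx8, an H3K27me3 reader, had 24.8, 18.4 and 16.2. Cbx7 had 5.50, 4.77 and 11.4 in these lists, and Pcgf2 had 4.27 for EZH2, 3.25 for SUZ12 and no H3K27me3. The EZH2 values at Bmi1 and Cbx8 were above the highest value at a PRC2 gene, 8.60 at Suz12, and so was that of Rnf2 (10.8), a PRC1 core gene with neither SUZ12 nor H3K27me3. All 4 also had N-MYC, p300, H3K27ac and H3K4me3 peaks.

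Markers were read in the same way to check the cell type. Of the T-lineage markers, 8 had a listed start and 8 of 8 carried H3K4me3 and H3K27ac. H3K4me3 was called at 1 of 3 B-lineage markers, 1 of 3 myeloid markers and 1 of 4 epithelial or stromal markers. These were Cd79a (4.74), Cebpa (6.81) and Epcam (19.3). In the same order, H3K27ac was called at 1 of 3 (Cd79a, 5.29), 1 of 3 (Itgam, 4.59) and 2 of 4 (Epcam, 5.31, and Foxn1, 2.84). H3K27me3 was called at 1 of 8 T-lineage markers (Bcl11b, 3.58), 2 of 3 B-lineage, 2 of 3 myeloid and 1 of 4 epithelial or stromal markers. Over all genes the shares with H3K4me3, H3K27ac and H3K27me3 were 51.1%, 51.1% and 23.7%. Whether other cells contributed to the peaks at the PRC2 genes was not tested.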

How the data were processed

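Peaks of 7 immunoprecipitations, 1 library per antibody, were read at the PRC2 genes. FastQC, Bowtie2, SAMtools, MACS2 and deepTools and the build mm10 (GRCm38) are named, without roles or versions, per the submitters' processing notes. Whether libraries were pooled, or the inputs used as controls, is not given in the sources used here. Fold enrichment is a linear ratio as deposited by the authors. The p-value and q-value are −log10 values as deposited, with the smallest −log10 q of a list between 2.00 and 2.08. The deposited score is 10 times the −log10 q-value as a whole number and was not used here.

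Starts, strands and promoter sequences came from RefSeq tables of GRCm38.p6, which list a start for 17492 (79.9%) of 21887 protein-coding genes on 21 chromosomes; 2761 have several, of which the most upstream was read. H3K4me3 was called at 51.1% of starts, and at 3.78 to 5.38% when starts were moved by 5 to 1000 kb. Overlaps were computed in Python 3.11.15 with pandas 2.3.3 and tested on simulated data. The strongest peak in the window of 1 kb represented a list. All 10 PRC2 genes are named, with the other pathway genes that had SUZ12 or H3K27me3 at the start and the 5 genes nearest in pattern to Ezh2 and to Ezh1. Ezhip, Kdm6a, Uty, Rnf2 and the single markers named were picked from their lists after their values were seen. The CACGCG search, the shares among active promoters and beyond the start window, the H3K4me3 quartiles, chromosome X and the distances between summits were added after seeing the data. Nearest patterns used the Euclidean distance of log2(fold enrichment + 1) over the 7 lists. Members and lists were chosen with earlier results of these data known. Alternatives changed the window, the overlap, the peak threshold, the list length and the start. Read depth is unknown, so no interval on a peak value is given.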

Additional observations from a re-analysis of the deposited data

How the results depend on the processing

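No paired analysis was possible because each antibody had 1 library and no result comes from a test between groups. Counts of PRC2 genes were recomputed under 10 alternatives at the start and 4 in the body; the reading at any listed start and at the outer end of the gene was chosen after seeing the data. Of 108 recomputed counts, 101 stayed within 1.5 times the reported count. The other 7 were all of H3K27me3. Its count at the start, 1, was 0 with a window of 500 bp, with the summit in the window and with equal list lengths (9798 peaks), each time through the loss of Ezh1. Its count in the body, 1, was 0 at a q-value of at most 1e-05, at a fold enrichment of at least 4 and with equal list lengths, and 2 with the body extended by 1 kb, which added Ezh1. SUZ12 was at 0 genes under every alternative run, and EZH2 at 8 or 9. Rbbp7 had no EZH2 and Phf19 no N-MYC call under any of them. At the start these absences could not change. The nearest SUZ12 peak to any of the 10 starts was 17189 bp away, at Ezh1, and the widest window was 5 kb. The nearest EZH2 peak to Rbbp7 was 68426 bp away and the nearest N-MYC peak to Phf19 42488 bp. Thresholds and shorter lists can only remove peaks. Counts of 9 or 10 of the 10 genes also could not rise by 1.5 times. Genes with the active combination numbered from 6, at the outer gene end, to 8, with equal list lengths. With a window of 500 bp, or the summit in the window, they stayed at 7 but Ezh1 took the place of Aebp2. The share of all genes with the combination ranged from 17.2 to 25.5%. Of 700 recomputed fold enrichments, 680 were equal to the reported value, 17 lost the call and 3 came from another peak. Much of this equality was built in. A gene without a peak in a list counted as equal when it stayed without one. A threshold or a shorter list keeps or drops a peak and cannot change its fold enrichment. Depth is unknown, so a missing peak cannot be told apart from a shallow library.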

Other observations

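The starts most like that of Ezh2 over the 7 lists, by Euclidean distance of log2(fold enrichment + 1), were those of Cbfb (0.24), Lrrc58 (0.24), Glud1 (0.25), Shld2 (0.25) and Ccar1 (0.25), none of which had a SUZ12 or H3K27me3 peak. Glud1 and Shld2 had the same values in all 7 lists. Their N-MYC fold enrichments ran from 11.8 at Glud1 and Shld2 to 13.3 at Lrrc58, beside 13.2 at Ezh2. Among the other PRC2 genes, Suz12 was nearest to Ezh2 (0.41), followed by Eed (0.57) and Jarid2 (0.62), and Phf19 was farthest (4.0). A missing call weighs heavily in this distance, so the nearest genes share the calls of Ezh2 largely through how they were picked.

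The starts most like that of Ezh1 were those of Taok3 (0.27), Ccdc103 (0.48), Cers6 (0.51), Skap2 (0.51) and Man1a (0.52), which all had H3K27me3 peaks, of fold enrichment 5.06 to 6.30, and no SUZ12 peak. The same calls entered the distance, so this sharing follows largely from how the genes were picked. The distance from Ezh1 to Ezh2 was 3.10.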
